A study of Mus musculus with 36 samples.

Results

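Bile is formed at the apical, or canalicular, membrane of hepatocytes, from solutes that the basolateral membrane takes up from the blood. The transcripts of 10 transport proteins of these 2 membranes were followed in mouse liver: *Abcb11*, *Abcb4*, *Abcc2*, *Abcg5*, *Abcg8*, *Abcg2* and *Atp8b1* at the canaliculus, and *Slc10a1*, *Slco1b2* and *Slco2b1* at the basolateral side. They were chosen by gene symbol from the 54532 genes counted, with earlier results of these data known. All 10 were among the 17994 genes tested. The livers came from 36 male mice aged 2 to 3 months, fed normal chow and kept in cycles of 12 h light and 12 h dark. The 18 control mice were heterozygous for a *Thrb* knockout allele (THRB+/-, named THRB WT), and the 18 THRB KO mice were homozygous (THRB-/-). The allele, bred on the C57Bl/6NCrl background, removes both isoforms of thyroid hormone receptor beta in the whole animal, and no mouse carried 2 intact copies. Every 4 h from ZT2 to ZT22, at 6 sampling times, 3 mice of each genotype were taken, where ZT is zeitgeber time in hours after lights on. The mice of a group bear the letters a, b and c, in which order the values of single mice are given.

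Bile salts move in a circuit between liver and gut, and the transporters set how fast the liver takes them up and secretes them. The canalicular ABC proteins spend ATP to export a lipid or an organic anion each, and the mixed micelles of bile form from the bile salts, phospholipid and cholesterol that they deliver. Thyroid hormone is known to act on cholesterol and bile acid turnover in the liver, largely through the beta receptor, and many genes of bile formation are known to follow the daily cycle of feeding.

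The 18 THRB WT libraries held 29063273 to 39913574 counts each and the 18 THRB KO libraries 31008555 to 42530551, and the members had mean counts per library from 1115 (*Atp8b1*) to 26163 (*Slco1b2*). Libraries of the same group differed by more than the sampling noise. Hepatocyte markers summed to 62879 to 88600 CPM (counts scaled to a common library size) in THRB WT and to 72184 to 95401 CPM in THRB KO livers, while 5 cholangiocyte markers summed to 5.44 to 18.6 CPM over all mice. No list of markers for 6 liver cell types held a gene that was called between genotypes, and none of these genes was at 0 in every library. For *Thrb* itself, THRB WT mice had 28.9 ± 3.69 CPM and THRB KO mice 31.5 ± 2.70 CPM (SD, n = 18 each). Counts per gene do not separate the altered exon, so this level is no check of the genotype labels. In whole liver, fewer cells of a type and less RNA per cell cannot be told apart.

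The starts of the members that carry the main results are shown as DNA from the RefSeq promoter table (GRCm38.p6), which held 9 of the 10 genes and no entry for *Atp8b1*. For *Abcg8*, the nearer to *Abcg5* of its 2 listed starts was taken, while its counted gene model begins at 84676302, inside that of *Abcg5*. From these starts *Abcg5* and *Abcg8* lie head to head. The start of *Abcg5* is on the minus strand (position 84683011) and that of *Abcg8* on the plus strand (84683121), with 109 bases between them. These bases, chr17:84683012-84683120, are given on the plus strand with the 2 matches to GATAA, which are on the other strand, in capitals.
Abcg5-Abcg8: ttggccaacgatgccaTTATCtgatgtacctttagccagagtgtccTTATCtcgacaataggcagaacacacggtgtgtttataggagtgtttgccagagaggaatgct
For *Abcb11*, the member called between genotypes, the 250 bases before its start are given on its own, minus strand (chr2:69342617-69342866). The capitals mark the only match to the hexamer AGGTCA, the core that nuclear receptors such as thyroid hormone receptors bind, here read on the opposite strand with 50 bases between it and the start.
Abcb11: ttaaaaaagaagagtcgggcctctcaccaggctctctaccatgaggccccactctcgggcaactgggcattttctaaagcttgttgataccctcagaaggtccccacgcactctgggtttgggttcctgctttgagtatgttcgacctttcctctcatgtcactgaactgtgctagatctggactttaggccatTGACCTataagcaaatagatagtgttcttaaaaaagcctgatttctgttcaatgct
Over windows of 300 bases, from 250 before a start to 50 after it, AGGTCA on either strand was present in 4 of the 9 members (*Abcb11*, *Abcc2*, *Abcg2* and *Slco1b2*) and in 16.3% of 32851 promoters. GATAA was present in 6 of 9, with 3 matches each in the overlapping windows of *Abcg5* and *Abcg8*, and in 25.4% of all promoters. The E-box CACGTG, bound by clock factors, and the D-box TTATGTAA or TTACGTAA were present in 0 of 9, against 7.15% and 1.06% of all promoters. These motifs do not overlap each other in the bases shown, and a match is only a description of the letters.

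Per kilobase of gene model, 2 of the 3 uptake carriers had the highest levels. In THRB WT livers *Slc10a1* (NTCP, the sodium-dependent carrier of bile salts) had the highest level, 293 ± 48.3 CPM per kb (SD, n = 18), ahead of *Slco1b2* (OATP1B2, which takes up unconjugated bile acids, bilirubin glucuronides and drugs) with 153 ± 42.7. *Abcb11* (BSEP, the export pump of bile salts) followed with 101 ± 32.0 and *Abcc2* (MRP2, the exporter of conjugated bilirubin and other organic anions) with 46.4 ± 12.7 CPM per kb. *Abcg5*, *Slco2b1*, *Abcg8* and *Abcb4* had 28.3 ± 13.7, 23.8 ± 2.73, 23.3 ± 13.2 and 21.8 ± 5.25 CPM per kb, and these overlapped within 1 SD. The SD over all sampling times holds the daily course as well as the spread between mice. *Abcg2* (BCRP, an exporter of drugs and sulfated compounds) had 9.97 ± 1.28 and *Atp8b1* (FIC1, a flippase that moves aminophospholipids to the inner leaflet) 5.16 ± 0.793 CPM per kb. Of the neighbours in this order, *Slco1b2* and *Abcb11*, and *Abcc2* and *Abcg5*, also overlapped within 1 SD of their means, and the other neighbours did not. In THRB KO livers *Slc10a1* had 305 ± 49.9, *Slco1b2* 157 ± 39.2 and *Abcb11* 115 ± 31.4 CPM per kb (SD, n = 18).

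**Figure D1:**
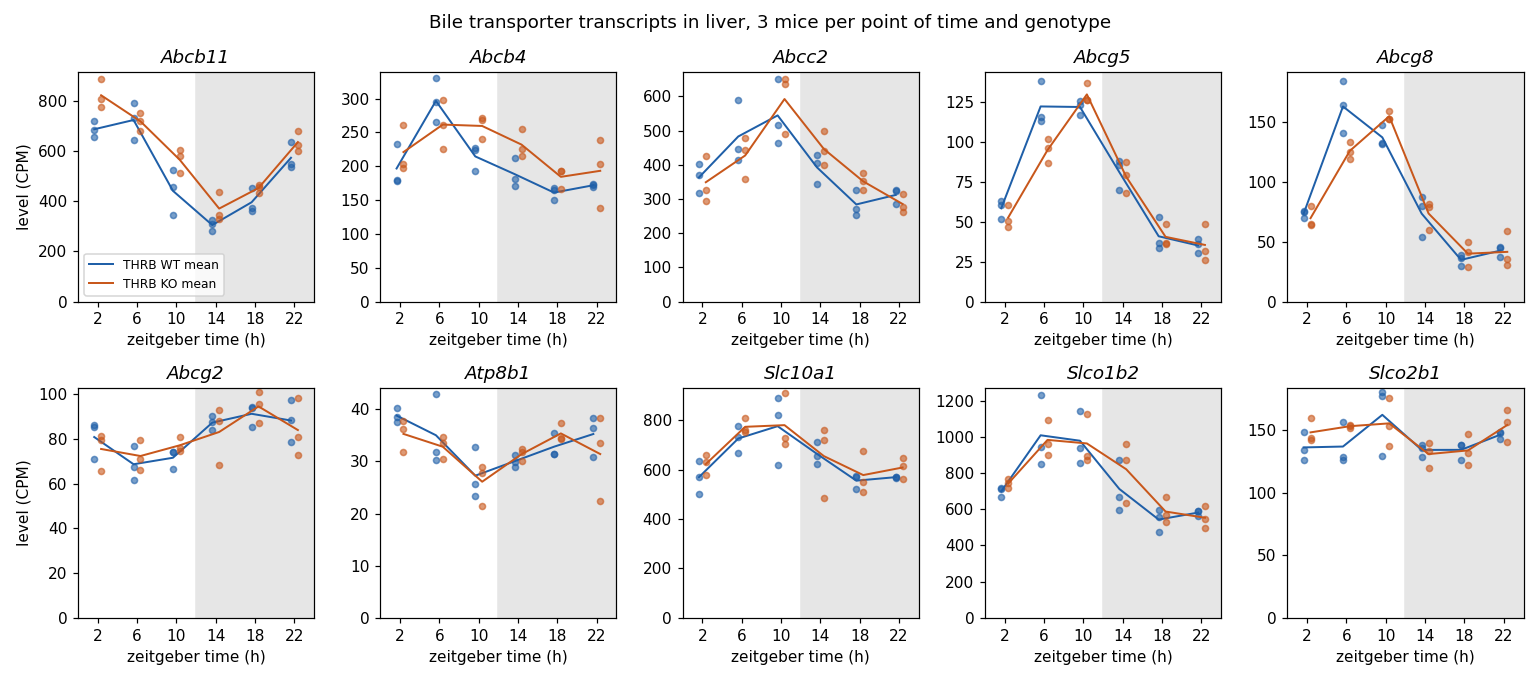
Level of each of the 10 transcripts (y axis, CPM, starting at 0) against zeitgeber time (x axis, h; grey marks the dark phase), with 1 dot per mouse and lines through the means of 3 mice for THRB WT (blue) and THRB KO (orange). *Abcb11* was highest at ZT2 or ZT6 and lowest at ZT14 in both genotypes, *Abcg5* and *Abcg8* were highest at ZT6 or ZT10, and *Abcg2* was highest at ZT18.

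Loss of THRB was compared with the control over all sampling times to ask whether the transcripts differ in level without the receptor. *Abcb11* was higher in THRB KO livers, and the other 9 members were not called. By edgeR's quasi-likelihood test with sampling time in the model and Benjamini-Hochberg adjustment over all tested genes, 1 of 10 members had an adjusted p under 0.05, against 0.95% of all tested genes in either direction and 0.506% higher in THRB KO. The study lists *Abcb11* among genes with raised baseline expression in these THRB KO livers, and the members were chosen with earlier results known. The share of members called is therefore no independent test. The median log2 fold change (THRB KO minus THRB WT, as throughout) was 0.042 over the members and -0.0011 over all tested genes, and 6 of the 10 members had a positive value.

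*Abcb11* lies on the minus strand of chromosome 2 (69238282 to 69342616, GRCm38) and encodes the pump that drives the flow of bile by exporting bile salts. At ZT2 the THRB WT mice had 657, 721 and 682 CPM and the THRB KO mice 885, 776 and 806 CPM. At ZT14 they had 326, 310.4 and 279.6 CPM in THRB WT and 436, 329 and 347 CPM in THRB KO mice. At these 2 times every THRB KO mouse was above every THRB WT mouse. At ZT10 the values were 455, 524 and 346 CPM in THRB WT and 603, 514 and 578 CPM in THRB KO mice. At ZT6 they were 646, 793 and 732 CPM against 680.4, 722 and 753 CPM. The groups overlapped at ZT10 and ZT6, and ZT6 was the only time at which the mean was not higher in THRB KO mice. At ZT18 the THRB WT mice had 372, 362 and 455 CPM and the THRB KO mice 466, 458 and 435 CPM, and at ZT22 they had 537, 637 and 547 CPM against 626, 680.1 and 601 CPM. These groups overlapped as well, with the higher mean in THRB KO mice at both times.

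Over all times the level of *Abcb11* was 521 ± 165 CPM in THRB WT against 594 ± 162 CPM in THRB KO livers (SD, n = 18 each). The log2 fold change was 0.20 (standard error 0.050, 95% confidence interval 0.10 to 0.31, adjusted p = 0.0324), and THRB KO mice had the higher mean at 5 of 6 times. The call did not hold when the mice of letter a, of letter b or of letter c were dropped (adjusted p of 0.57, 0.0558 and 0.192), without ZT2, ZT10, ZT14, ZT18 or ZT22 (adjusted p from 0.0866 to 0.163), or with genotype as the only term (0.887), although the log2 fold change stayed between 0.15 and 0.27 in all 15 alternatives. The gene models of *Gm13613* and *Gm13614* on the opposite strand share 136 and 19 of the 5146 exon bases of *Abcb11*, and libraries without strand information cannot assign such reads.

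*Abcb4* (chromosome 5, 8893717 to 8959231, plus strand) encodes MDR2, the floppase that brings phosphatidylcholine into bile and so protects the duct cells from bile salts. Its level was 205 ± 49.3 CPM in THRB WT against 225 ± 40.6 CPM in THRB KO livers (SD, n = 18 each). The log2 fold change of 0.15 (standard error 0.061) did not pass the test (adjusted p = 0.279), THRB KO mice having the higher mean at 5 of 6 times. At ZT14 the mice had 181, 212 and 171 CPM in THRB WT and 215, 255 and 226 CPM in THRB KO, without overlap. At ZT6 the order of the means was the opposite, with 295, 330 and 265 CPM in THRB WT and 298, 226 and 261 CPM in THRB KO mice, and the groups overlapped.

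The 8 other members had log2 fold changes from -0.08 (*Abcg5*) to 0.06 (*Slc10a1*). For *Slc10a1* (chromosome 12, 80953183 to 80968705, minus strand) the 95% confidence interval of the log2 fold change was -0.05 to 0.17, and for *Slco1b2* (chromosome 6, 141629518 to 141686646, plus strand) -0.08 to 0.17. The interval was -0.05 to 0.13 for *Slco2b1* (chromosome 7, 99657804 to 99711340, minus strand), which encodes OATP2B1, a carrier of steroid sulfates and drugs. *Slco2b1* shares 471 of its 5958 exon bases (7.91%) with *Gm15635* on the opposite strand, and reads of that stretch cannot be assigned to either gene. *Abcc2* (chromosome 19, 43782192 to 43840740, plus strand) had an interval from -0.09 to 0.18 and *Abcg2* (chromosome 6, 58584523 to 58695676, plus strand) from -0.09 to 0.09. For the subunits of the cholesterol exporter, *Abcg5* and *Abcg8*, the intervals were -0.22 to 0.06 and -0.18 to 0.14. For *Atp8b1* (chromosome 18, 64528979 to 64661000, minus strand) it was -0.17 to 0.07. Differences of a size within these intervals were not excluded with 18 mice per genotype.

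**Figure D2:**
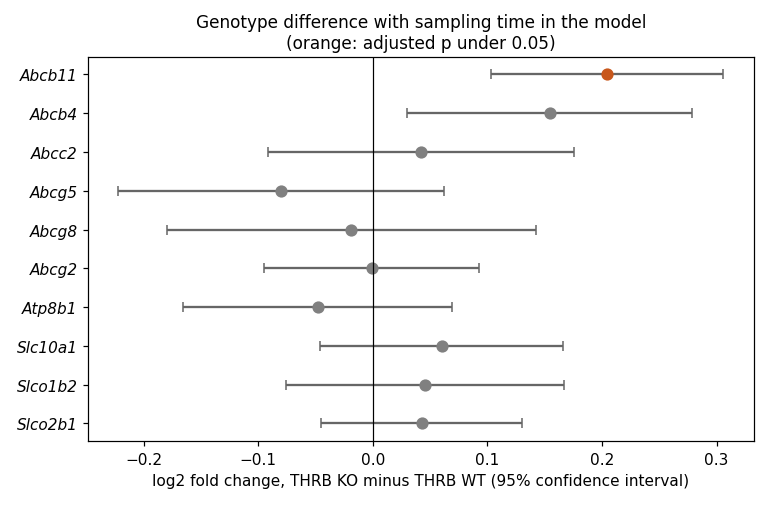
Log2 fold change, THRB KO minus THRB WT, of each transcript with sampling time in the model (x axis; dots are estimates and bars 95% confidence intervals, 18 mice per genotype). *Abcb11* (orange), at 0.20, is the only member with an adjusted p under 0.05, *Abcb4* is at 0.15, and the other 8 intervals include 0.

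Whether the genotype difference changed with the time of day was tested by 5 interaction coefficients. No member passed (edgeR, adjusted p of 0.9999 for each), and neither did any of the tested genes (0%); 0 members and 484 genes had an unadjusted p under 0.05. At single sampling times, with 3 mice against 3, 0 of 60 member tests passed after adjustment, against 0.0195% of all tests at these times. At an unadjusted p under 0.05 stood 5 of the 60, namely *Abcb11* at ZT2, ZT10 and ZT14, *Abcb4* at ZT14 and *Abcg5* at ZT6, as did 5279 of the 107964 tests over all genes. The groups of 3 did not overlap in 10 of 60 member comparisons (16.7%), against 9.96% over all tested genes. An exact permutation test of 3 mice against 3 cannot give a two-sided p below 0.1.

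*Abcg5* and *Abcg8* are described at ZT6 and ZT10 because their groups did not overlap at these times. *Abcg5* had 113, 138 and 116 CPM in THRB WT and 102, 86.7 and 96.3 CPM in THRB KO mice at ZT6. *Abcg8* had 140.4, 184 and 164 CPM in THRB WT and 124, 119 and 133 CPM in THRB KO mice at the same time. Every THRB KO mouse was below every THRB WT mouse for both genes. At ZT10 the order was the reverse, with 117, 123 and 126 CPM of *Abcg5* in THRB WT and 126.1, 126.5 and 137 CPM in THRB KO mice, and with 132, 147 and 132 CPM of *Abcg8* against 153, 159 and 152 CPM. For *Abcg5* at ZT10 the highest THRB WT mouse had 125.9 CPM and the lowest THRB KO mouse 126.1 CPM. The unadjusted p from edgeR was 0.0426 for *Abcg5* and 0.0607 for *Abcg8* at ZT6, and 0.603 and 0.367 at ZT10. Since the times were picked for their lack of overlap, that lack is no test. The interaction of genotype and time did not pass for either gene, as given above.

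The rhythm over 24 h was examined in each genotype by a sine and a cosine term. In THRB WT livers 9 of 10 members were rhythmic (edgeR, adjusted p under 0.05), against 33.1% of all tested genes, and in THRB KO livers 8 of 10, against 28.9%. In both genotypes 8 members were rhythmic, against 21.6% of all tested genes. *Slco2b1* was not called in either genotype, and *Atp8b1* in THRB WT livers alone, which does not show that the genotypes differ.

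The obligate partners *Abcg5* and *Abcg8* (chromosome 17, 84658234 to 84683011 on the minus and 84676302 to 84700333 on the plus strand), which together export cholesterol and plant sterols, had the widest daily range of the members. In THRB WT livers *Abcg8* was highest at ZT6 with 163 ± 21.7 CPM (SD, n = 3) and lowest at ZT18, where the mice had 35.99, 39.1 and 29.4 CPM. Its fitted range from trough to peak was 4.81-fold, and its rhythm had the smallest p-value of all tested genes (rank 1, adjusted p = 7.13e-09 from edgeR). *Abcg5* was highest at ZT6 with 122 ± 13.95 CPM (SD, n = 3) and lowest at ZT22, where the mice had 39.3, 36.02 and 30.2 CPM. Its fitted range was 4.00-fold, with rank 4 among the tested genes (adjusted p = 1.32e-08). In THRB KO livers the fitted ranges were 4.30-fold for *Abcg8* and 3.78-fold for *Abcg5*, and both were highest at ZT10. The ranks of their p-values among the tested genes were 24 and 9 there. The mice at the highest and the lowest time did not overlap for either gene in either genotype. Exons of the pair share 82 bases on opposite strands, 3.02% of the exon bases of *Abcg5* and 2.19% of those of *Abcg8*, and reads of that stretch cannot be told apart.

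*Abcb11* peaked earlier. Its fitted peak was at ZT 2.86 (standard error 0.38 h) in THRB WT livers, against ZT 3.01 (standard error 0.31 h) in THRB KO livers, with fitted ranges of 2.35-fold and 2.13-fold. The values of the mice at the lowest time, ZT14, are given above, and none reached those of ZT2 or ZT6. The peak of *Abcb11* in THRB WT livers came 3.93 h (95% confidence interval 2.41 to 5.46 h) before that of *Abcb4*, which was at ZT 6.80 with a fitted range of 1.65-fold.

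The main group peaked in the later part of the light phase. In THRB WT livers *Abcb4*, *Abcg8*, *Slco1b2*, *Abcc2*, *Abcg5* and *Slc10a1* peaked in this order from ZT 6.80 to ZT 9.29, and no interval between neighbours in this order excluded 0. Members further apart in the order were not compared, so these peaks are not shown to coincide. *Slco1b2* had 852, 941 and 1231 CPM at ZT6 and 554, 598 and 477 CPM at ZT18, with a fitted range of 1.91-fold. *Abcc2* had 465, 651 and 516 CPM at ZT10 and 326, 272 and 254 CPM at ZT18, with a fitted range of 1.86-fold. *Slc10a1* had a narrower range, 1.41-fold, with 819.5, 891 and 618 CPM at ZT10 and 571, 521 and 575 CPM at ZT18. For these 3 genes every mouse of the higher time was above every mouse of the lower time.

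*Abcg2* ran opposite to this group. It had 94.3, 93.8 and 85.5 CPM at ZT18 and 76.6, 61.7 and 67.6 CPM at ZT6 in THRB WT livers, without overlap. Its fitted peak was at ZT 18.95, 9.66 h after that of *Slc10a1* (95% confidence interval 7.50 to 11.8 h), and its fitted range was 1.34-fold. *Atp8b1* peaked at ZT 0.43 in THRB WT livers with a range of 1.35-fold, from 37.5, 40.3 and 38.5 CPM at ZT2 to 25.8, 32.7 and 23.4 CPM at ZT10. That peak came 2.43 h before the peak of *Abcb11* (95% confidence interval 0.34 to 4.52 h). The adjusted p of the *Atp8b1* rhythm was 0.0141 in THRB WT livers, against 0.300 in the knockout. It was 0.0697 when the mice of letter b were left out and 0.0981 when those of letter c were, both in THRB WT livers, where it was 0.0739 with sampling time as a factor. *Slco2b1* had fitted ranges of 1.07-fold in THRB WT livers and 1.16-fold in the knockout and did not pass (adjusted p of 0.695 and 0.167).

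**Figure D3:**
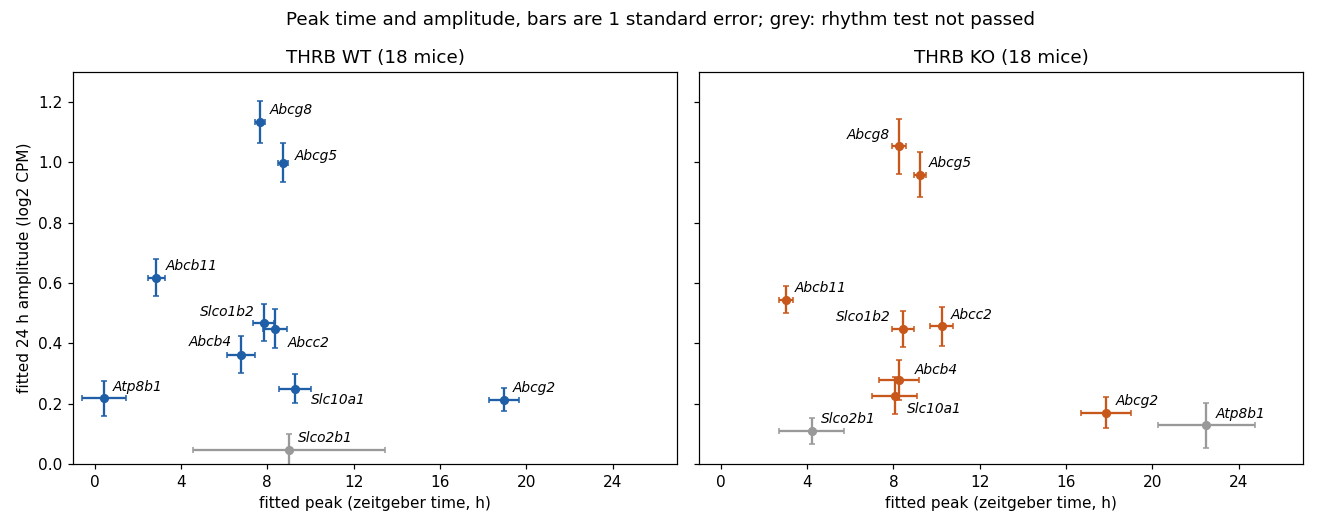
Fitted 24 h amplitude (y axis, log2 CPM) against fitted peak time (x axis, zeitgeber time in h) of each transcript in THRB WT (left) and THRB KO livers (right), with 1 standard error in each direction and genes that did not pass the rhythm test in grey. *Abcg8* and *Abcg5* stand highest near ZT 8 to ZT 9, *Abcb11* lies to the left of the main group, and *Abcg2* lies far to the right.

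Among the 8 members rhythmic in THRB KO livers the order began with *Abcb11* and ended with *Abcg2*, at ZT 17.9. *Slc10a1*, *Abcg8*, *Abcb4*, *Slco1b2*, *Abcg5* and *Abcc2* lay between ZT 8.05 and ZT 10.2, and *Slc10a1* came 5.04 h after *Abcb11* (95% confidence interval 2.75 to 7.33 h). The peak of *Abcc2* was 1.85 h later in THRB KO than in THRB WT livers (95% confidence interval 0.27 to 3.44 h). This interval is not adjusted for the 10 members examined, and the test of the sine and cosine terms between genotypes did not pass for *Abcc2* (edgeR, adjusted p of 1). For the other 9 members the intervals of the difference in peak time included 0. Among them *Slco2b1* was rhythmic in neither genotype and *Atp8b1* not in THRB KO livers. Their wide intervals (-14.4 to 4.82 h and -6.97 to 3.10 h) cannot settle a difference in peak. The intervals of the difference in amplitude included 0 for each of the 10. The rhythm calls of *Abcb4*, *Abcg2* and *Slc10a1* in THRB KO livers (adjusted p of 0.00937, 0.0339 and 0.0170) depended on the mice used. Without the mice of letter a the adjusted p was 0.0569, 0.293 and 0.209 for these genes. *Abcg2* and *Slc10a1* also failed without letter b (0.175 and 0.141), and *Abcb4* without letter c (0.129).

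The cholangiocyte markers had their lowest summed mean at ZT10, 6.62 CPM, and their highest at ZT2, 13.3 CPM (n = 6 mice per time, both genotypes). Of these genes *Sox9* and *Krt19* were rhythmic in both genotypes, *Krt7* and *Epcam* in neither, and *Cftr* was not tested. Hepatocyte markers had their lowest summed mean at ZT2, 75767 CPM, and their highest at ZT22, 85218 CPM. *Alb*, the largest part of that sum, was not rhythmic in either genotype, nor were *Ttr* and *Apoa1*. *Cyp2e1* was rhythmic in both genotypes and *Cps1* in THRB KO livers alone. The part of the markers in the rhythms of the transporters was not tested.

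The ratio of 2 partner transcripts in the same mouse does not depend on library size. Ratios of *Abcg8* to *Abcg5* and of *Abcb11* to *Abcb4* were taken after their values had been seen. The fits above already gave the transcripts of each pair different peak times and ranges, so a rhythm of the ratio is no independent result. The p-values below are not adjusted for the other pairs that could have been taken. *Abcg8* to *Abcg5* was 1.26 ± 0.081 at ZT2 and 1.33 ± 0.088 at ZT6 in THRB WT livers (SD, n = 3 each), and fell to 0.896 ± 0.111 at ZT14 and 0.877 ± 0.196 at ZT18. It was 1.32 ± 0.060 and 1.33 ± 0.091 at ZT2 and ZT6, against 0.938 ± 0.079 and 0.983 ± 0.180 at ZT14 and ZT18, in THRB KO livers (SD, n = 3 each). No mouse at ZT14 or ZT18 reached the ratio of a mouse at ZT2 or ZT6 of its genotype. The fitted daily range of this ratio was 1.51-fold, with a peak at ZT 3.93 (permutation test of sampling times within genotype over 36 mice, 100000 resamples, p = 1e-05, the smallest these resamples can give, and 2e-05 adjusted over 4 tests).

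*Abcb11* to *Abcb4*, the transcripts for the export of bile salts and of phospholipid, had a ratio of 3.56 ± 0.648 at ZT2 and 1.63 ± 0.166 at ZT14 in THRB WT livers (SD, n = 3 each). At these times it was 3.76 ± 0.322 and 1.62 ± 0.376 in THRB KO livers (SD, n = 3 each). The mice of ZT2 and ZT14 did not overlap in either genotype. The fitted daily range was 2.13-fold with a peak at ZT 0.79 (the same permutation test, p = 1e-05, 2e-05 adjusted). The ratios did not pass between genotypes, with log2 differences of 0.056 for *Abcg8* to *Abcg5* and 0.061 for *Abcb11* to *Abcb4* (permutation of genotype within sampling times, adjusted p of 0.351 and 0.419).

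**Figure D4:**
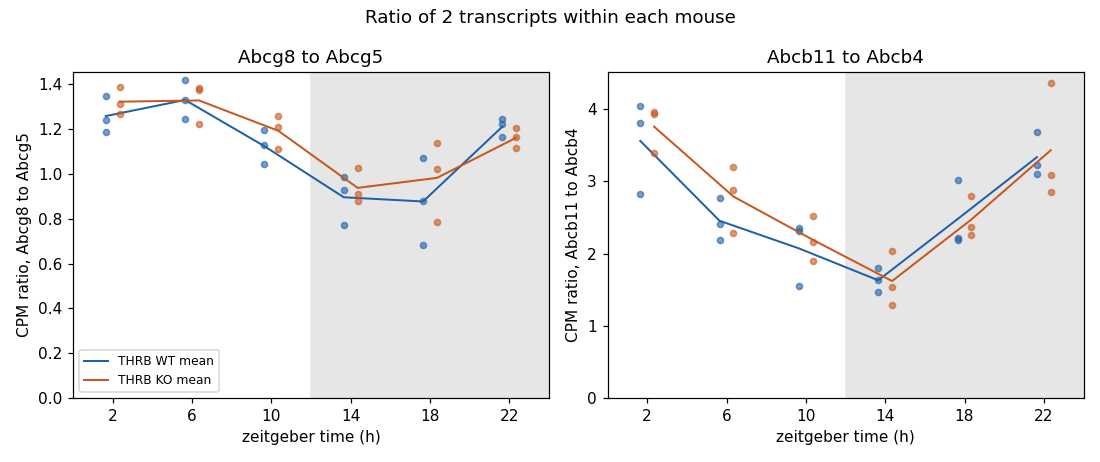
Ratio of the CPM values of *Abcg8* to *Abcg5* (left) and of *Abcb11* to *Abcb4* (right) in each mouse (dots) against zeitgeber time (x axis, h; grey marks the dark phase), with lines through the means of 3 mice for THRB WT (blue) and THRB KO (orange). Both ratios are lowest at ZT14 or ZT18 in both genotypes and rise to ZT2 or ZT6.

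Across the 36 libraries, which share sampling times and genotypes, the log2 CPM values of *Abcg5* and *Abcg8* had a Pearson r of 0.95. The r was 0.90 for *Slco1b2* and *Abcg8* and 0.87 for *Abcc2* and *Abcg5*. The uptake gene *Slco2b1* had lower values with the export genes, such as 0.05 with *Abcb4* and 0.15 with *Abcg5*. *Abcb11* had an r of 0.35 with *Abcb4*, -0.05 with *Abcc2* and -0.02 with *Abcg5*. *Abcg2* had negative values with 8 of the other members, down to -0.70 with *Abcg8*, and 0.24 with *Atp8b1*. These values describe the libraries and are not tests.

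**Figure D5:**
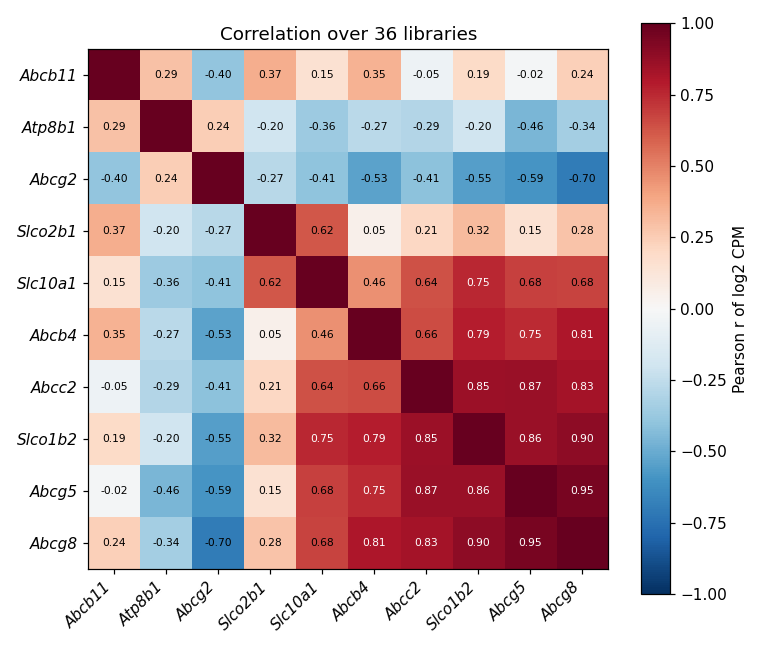
Pearson r of log2 CPM between each pair of the 10 transcripts over 36 libraries (colour scale from -1, blue, to 1, red, with the value in each cell). *Abcg5*, *Abcg8*, *Slco1b2*, *Abcc2* and *Abcb4* form a red block with values up to 0.95, *Abcg2* is blue against it, and *Abcb11* is near 0 with *Abcc2* and *Abcg5*.

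Of 12641 genes compared over the same 36 libraries, those most like *Abcb11* were *Rnf141*, *Camk1d* and *Evi5* (r from 0.91 to 0.92), and those most like *Abcb4* were *Tmem56*, *Strbp* and *Foxo4* (0.85 to 0.88). Beside each other, *Abcg5* was most like *Nr1d2*, which encodes the clock repressor REV-ERB beta, and *Slc38a3*, a glutamine carrier (0.93 each). *Abcg8* was most like *Syt1* and *Tbc1d20* (0.93 each). *Abcc2* was most like *Rb1cc1*, *Abcg5* and *Dennd5b* (0.87 each). For *Slco1b2*, *Kat2b*, a histone acetyltransferase gene, had an r of 0.92 and *Dcun1d4* 0.91. *Slc10a1* was most like *Slc2a2*, the hepatocyte glucose carrier GLUT2, at 0.88, and then *Rsrc1* and *Pbld1* (0.88 and 0.84). The nearest genes to the 3 remaining members had lower values, with *Serp1*, *Cycs* and *2810425M01Rik* for *Abcg2* (0.79 to 0.80), *Nek6*, *Gorab* and *Kdm4a* for *Atp8b1* (0.73 to 0.81) and *Pm20d1*, *Rab5b* and *Car5a* for *Slco2b1* (0.74 to 0.78).

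Other genes of bile formation were read as lists beside the members, also chosen with earlier results of these data known. Over all tested genes 0.95% were called in either direction and 0.506% higher in THRB KO livers, and 8915 of the 17994 values were positive. Of 8 other canalicular proteins 1 was called higher in THRB KO livers and 0 lower, with a median log2 fold change of 0.10. That gene was *Slc47a1* (MATE1, a proton antiporter that exports organic cations), with 132 ± 17.8 CPM in THRB WT against 156 ± 20.8 CPM in THRB KO livers (SD, n = 18 each) and a higher mean at 6 of 6 times. This is a log2 fold change of 0.24 with a standard error of 0.043 (edgeR, adjusted p = 0.0011). Of 12 partners, scaffolds and trafficking proteins of the canaliculus, 1 was called higher and 0 lower (median -0.0018). It was *Rdx*, which encodes radixin, a linker of canalicular proteins such as MRP2 to actin, with 170.1 ± 28.8 CPM in THRB WT against 193 ± 25.7 CPM in THRB KO livers (SD, n = 18 each, log2 fold change 0.19, adjusted p = 0.0366, higher at 6 of 6 times).

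Of 8 other uptake carriers 7 could be tested, and 0 passed (median 0.050). The largest value was 0.43 for *Slco1a4*, an organic anion carrier (66.1 ± 34.1 against 86.3 ± 38.3 CPM, SD, n = 18 each, edgeR adjusted p = 0.0957). *Slco1a6* had 9 counts in all. Of 8 basolateral efflux carriers 0 passed (median -0.035), and *Abcc4* (MRP4) had the largest value, 0.30, with an adjusted p of 0.542. *Slc51a* and *Slc51b*, the subunits of the organic solute transporter, had means of 0.307 and 0.660 CPM in THRB WT livers.

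Of 13 nuclear receptors and factors of the bile pathway 0 passed, with a median of 0.054, and 11 of the 13 values were positive. The largest in size was that of *Nr0b2*, the repressor SHP that acts on bile acid synthesis, at -0.46 (52.8 ± 24.3 against 37.3 ± 19.8 CPM, SD, n = 18 each, adjusted p = 0.203). Of 12 genes of bile acid synthesis and conjugation, *Acox2*, a peroxisomal oxidase that shortens the side chain, was called higher (log2 fold change 0.21, adjusted p = 0.0396) and 0 were lower (median 0.076). *Cyp7b1* of the alternative pathway had the largest value in size, -0.76, with an adjusted p of 0.162. *Cyp7a1*, the rate-limiting enzyme of bile acid synthesis, had 99.0 ± 62.8 CPM in THRB WT against 149 ± 88.5 CPM in THRB KO livers (SD, n = 18 each), a difference of 0.73 that did not pass (adjusted p = 0.0796).

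Against 33.1% of all tested genes, 12 of the 13 nuclear receptors and factors were rhythmic in THRB WT livers, as were 7 of the 12 synthesis genes and 5 of the 7 other uptake carriers tested. Of the efflux carriers 3 of 8 were rhythmic there, of the other canalicular proteins 3 of 8, and of the partners and scaffolds 4 of 12. In THRB KO livers the counts were 9, 7, 5, 3, 5 and 4 in the same order of lists, against 28.9% of all tested genes.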

How the data were processed

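Poly-A selected, non-directional libraries from 36 livers were sequenced in pairs of reads. Per the labels and the study's methods, the authors filtered reads, mapped them to GRCm38 (mm10) with HISAT2 and counted them per gene with featureCounts. The deposited counts are whole numbers for 54532 genes without normalization. A deposited column of gene length gave CPM per kb. Versions, annotation release, strand setting and treatment of multiply mapped reads are not given in the sources used here.

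Groups came from the sample titles. The 17994 genes whose counts summed to at least 100 were scaled by TMM and tested in R 4.3.3 by the quasi-likelihood test of edgeR 4.0.16 (with limma 3.58.1), with Benjamini-Hochberg adjustment over all of them and a threshold of 0.05. Genotype was tested with sampling time as a factor, by interaction terms and at single times. Rhythms were tested in each genotype by a sine and a cosine of 24 h period, and peak times, amplitudes and their t-based 95% intervals come from the same curve fitted by least squares to log2 CPM (prior count 2). Scripts were tested on simulated data. Alternatives were DESeq2 1.42.0, its size factors, other filters, genotype alone, mice paired by letter, time as a factor and a least squares fit for rhythms, an unadjusted threshold of 0.01, and dropping the mice of each letter in turn. Leaving out each sampling time was chosen after seeing the data, as were the ratios, tested by permutation (100000 resamples). Start sites and promoters are from RefSeq (GRCm38.p6) and exons from GENCODE M21, whose start and end equal the file's for 9 of 10 members.

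All 10 members are named, and of each pathway list the genes past the threshold of the genotype test or else the largest log2 fold change. *Cyp7a1*, *Cyp7b1*, *Slco1a6*, *Slc51a*, *Slc51b* and genes near *Abcb11* are named beyond this rule, after their values were seen. For each member the 3 tested genes with a mean of at least 1 CPM and the highest r are given, except 1 that is not reported here. Members and lists were chosen with earlier results of these data known. P-values rest on the spread between mice that the fitted terms leave, and the labels do not assign the mice to litters or batches.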

Additional observations from a re-analysis of the deposited data

How the results depend on the processing

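Over the alternatives, the log2 fold change of *Abcb11* stayed positive and 6 of 15 kept its call, among them DESeq2's likelihood ratio test (adjusted p = 0.00865). Called members over the genotypes numbered 0 when the mice of any letter were dropped, 0 with genotype alone and 0 without ZT2, ZT10, ZT14, ZT18 or ZT22, against 1 otherwise. Called genes numbered 171 in the reported test, 42 to 85 without the mice of a letter, 306 with DESeq2's likelihood ratio test, 65 with genotype alone, and 98, 112, 109 and 71 without ZT2, ZT10, ZT18 and ZT22. Calls over single times numbered 21, 43 with every gene of at least 1 count and 7 to 18 without the mice of a letter. With mice of the same time and letter taken as pairs, a replicate block, 387 genes and 36 calls over single times passed, and *Abcb11* was still the 1 member called. The letters were not taken as pairing in the reported tests, because the labels do not say what they mark. Deviations of same-letter mice from their group means were nevertheless alike, with r above 0.1 in 16 of 18 pairs (-0.061 to 0.39, median 0.20). The reported tests do not take this likeness into account.

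With time as a factor 8 members were rhythmic in THRB WT livers in place of 9. In THRB KO livers 8 members were rhythmic, 5 with time as a factor and 5 to 7 without the mice of a letter. Rhythmic genes without the mice of a letter numbered 3169 to 4033 in THRB WT and 2394 to 3263 in THRB KO livers. The rhythm of *Abcg2* in THRB KO livers had an adjusted p of 0.0578 by least squares. Log2 fold changes near 0 turned for *Abcg2* (0.0014 with every gene of at least 1 count, -0.0075 to 0.011 without the mice of a letter, and 0.018, 0.013 and 0.016 without ZT2, ZT14 and ZT22), for *Abcg5* (-0.16 to 0.023 without the mice of a letter), for *Abcg8* (-0.12 to 0.070 likewise, 0.053 without ZT6) and for *Abcc2* (-0.0082 without ZT18). The ratios were picked after their values had been seen. Their rhythms passed without the mice of each letter (permutation test, 10000 resamples, p = 0.0001 in each case, the smallest these can give), with fitted ranges of 1.45 to 1.60-fold and 1.95 to 2.53-fold. The cause of these changes was not tested.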

Other observations

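Within 500000 bases of *Abcb11* lie 16 other tested genes, read after the values had been seen. Of these, *Lrp2*, which encodes the endocytic receptor megalin, was called higher in THRB KO livers at a low level (by 0.71 on the log2 scale, standard error 0.183, edgeR adjusted p = 0.0454, mean 2.31 CPM). No other gene among these was called, and the share called over all tested genes was 0.95%. *Dhrs9*, the nearest tested gene beyond the start of *Abcb11*, had a log2 fold change of 0.39 at a mean of 3.01 CPM (standard error 0.173, adjusted p = 0.346). *Fastkd1*, at 25.3 CPM the second most abundant of these genes after *Ppig*, had 0.11 and *Ppig* -0.0019, neither of which passed. Negative values were also found for *Nostrin* (-0.14 at a mean of 15.3 CPM), *Cers6*, *Gm13613* and *Klhl41*, and none of them passed. At an unadjusted p under 0.05 (edgeR) stood *Lrp2*, *Fastkd1*, *Dhrs9*, *Bbs5*, *Gm13612* and *Gm36231*, all higher in THRB KO livers, and *Nostrin*, which was lower. Over all tested genes 2169 of 17994 stood under that threshold. *Gm13612* and *Gm36231* had means of only 0.0906 and 0.115 CPM. What lies behind the values around *Abcb11* was not tested.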
